A study of Homo sapiens with 12 samples.

Results

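A549 is an established line from a human lung adenocarcinoma, and 2 sets of 3 of its libraries were compared here. Libraries 3, 7 and 11 had RNA of CSAG1 and almost none of CDH10 (the CSAG1 set). Libraries 1, 5 and 9 had RNA of CDH10 and almost none of CSAG1 (the CDH10 set). These 6 were chosen from 12 libraries by their number in the labels. The numbers of a set leave the same remainder when divided by 4. The choice was made with the levels of CSAG1, MAGEA12 and CDH10 in view, and with DYRK1B low in both sets. Every gene of this comparison was therefore measured in the libraries that defined it. The values are a description, and no test was made.

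Per the labels, all 12 libraries came from A549 cells with a tetracycline-inducible transgene for the kinase DYRK1B, either wild type (WT) or Y273F, a form with phenylalanine in place of a tyrosine. Cells were cultured for 7 days, with doxycycline at 2 µg/ml in the induced wells, and each construct and treatment has 3 titles. The series text calls replicates separate populations grown in parallel, and all 12 carry the same batch label. A line without a transgene was not analysed here, and the labels do not say whether a line is 1 clone or a pool. The CSAG1 set holds the libraries titled WT control replicate 3 (library 3), Y273F control replicate 1 (library 7) and Y273F doxycycline replicate 2 (library 11). The CDH10 set holds those titled WT control replicate 1 (library 1), WT doxycycline replicate 2 (library 5) and Y273F control replicate 3 (library 9). Each set thus crosses construct and treatment as titled, and no library is assigned to a construct here by its title. The sets are compared by library number only, and the 3 libraries of a set are not known to be replicates of 1 culture condition.

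Cell lines carried in separate cultures or derived from single cells can differ in genes whose on or off state is passed on at division. Cancer-testis antigens such as CSAG1 and the MAGE-A family are normally transcribed in germ cells, lie mostly on the X chromosome and are silenced in somatic tissue largely through promoter methylation. They are reactivated in many tumours, often in some cells of a tumour and not in others. CDH10 is a classical type II cadherin, a calcium-dependent adhesion protein mainly known from the nervous system. A549 cells resemble cells of the distal lung, and also express mucin, gut-type and liver-type genes, aldo-keto reductases and targets of the transcription factor NRF2.

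The start regions of the genes that mark the sets are shown first, because the markers CSAG1 and MAGEA12 share one. Sequences are RefSeq windows on GRCh38.p14 that run from 250 bases before to 50 bases after an annotated start, 5′ to 3′ on the strand of the gene, with CG dinucleotides in capitals. CSAG1 lies on the minus strand and MAGEA12 on the plus strand of the X chromosome, head to head. The CSAG1 window is chrX:152733672-152733971. Its start is at 152733721, and the annotated starts of MAGEA12 are 36 and 141 bases away, at 152733757 and 152733862. The windows of CSAG1 and of the farther MAGEA12 start share 240 bases, so the sequence below is largely the start region of both genes. It holds 16 CG dinucleotides.
CSAG1: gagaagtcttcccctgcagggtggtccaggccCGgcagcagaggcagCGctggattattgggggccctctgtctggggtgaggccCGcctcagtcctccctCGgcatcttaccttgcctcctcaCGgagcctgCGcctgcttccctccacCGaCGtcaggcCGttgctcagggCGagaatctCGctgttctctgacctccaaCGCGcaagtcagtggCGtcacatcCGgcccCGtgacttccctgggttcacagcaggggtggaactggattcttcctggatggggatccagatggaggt
DIRAS3 (chr1:68050578-68050877, minus strand) encodes a RAS-related GTPase that restrains growth and is imprinted, with the paternal copy active. Its window has 21 CG dinucleotides.
DIRAS3: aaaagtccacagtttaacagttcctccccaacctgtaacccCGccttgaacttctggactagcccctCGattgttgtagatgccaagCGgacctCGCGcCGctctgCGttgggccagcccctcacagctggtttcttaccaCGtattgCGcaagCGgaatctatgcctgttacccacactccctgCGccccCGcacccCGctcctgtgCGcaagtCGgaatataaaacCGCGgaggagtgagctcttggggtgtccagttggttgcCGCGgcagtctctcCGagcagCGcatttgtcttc
CDH10 (chr5:24644929-24645228, minus strand) has 12 in its window.
CDH10: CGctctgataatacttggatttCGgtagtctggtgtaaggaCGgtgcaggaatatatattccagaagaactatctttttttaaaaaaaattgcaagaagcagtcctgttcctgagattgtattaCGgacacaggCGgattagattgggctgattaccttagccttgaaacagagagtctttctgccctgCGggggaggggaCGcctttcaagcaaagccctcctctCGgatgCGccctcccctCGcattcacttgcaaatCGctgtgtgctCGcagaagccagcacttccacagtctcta
CEACAM5 (chr19:41708376-41708675, plus strand), a cell surface glycoprotein of gut and lung epithelium, is shown as a gene of the opposite kind, with 2 in its window.
CEACAM5: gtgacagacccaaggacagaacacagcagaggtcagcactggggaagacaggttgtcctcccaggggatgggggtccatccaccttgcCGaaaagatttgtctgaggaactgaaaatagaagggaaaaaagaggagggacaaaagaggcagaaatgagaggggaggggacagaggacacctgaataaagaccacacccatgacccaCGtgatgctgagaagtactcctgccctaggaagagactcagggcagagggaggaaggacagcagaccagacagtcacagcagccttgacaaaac

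Levels are given in CPM (counts-per-million, with totals scaled for composition). Library totals in the 6 libraries were 5081182 to 22028624 counts. On these totals, before that scaling, 3 counts corresponded to 0.136 CPM in library 9, the deepest, and to 0.59 CPM in library 11. These floors cover counting error only. Library 3 stood apart within its set. It was at least 2-fold below both of libraries 7 and 11 for 29 genes and 2-fold above both for 12, against 4 to 12 genes for any other of the 6 libraries. Mitochondrially encoded genes took 5.87% of its counts and 3.52% to 4.18% in the other 5. ALDH1A1, a dehydrogenase that A549 cells make in large amounts, was at 5891 CPM to 6347 CPM in all 6 libraries. CDKN2A, which is deleted in A549, had no count in any of the 12.

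Most genes had nearly the same level in both sets. Among 10339 genes with a mean of at least 5 CPM over the 6 libraries, the median size of the log2 ratio of the set means was 0.12 and its 95th percentile was 0.47. The median pooled SD within the sets was 0.14 on the log2 scale. A gene was called apart where the lowest library of one set was at least 2 times the highest of the other, among 12705 genes with a mean of at least 1 CPM (measured genes). There were 23 genes apart and higher in the CSAG1 set, which is 0.181% of the measured genes, and 34 apart and higher in the CDH10 set, which is 0.268%. Under the looser condition that the sets merely do not overlap, the counts were 1096 genes (8.63%) and 1421 genes (11.2%). Gene groups are read below against these shares. The heat map of the apart genes shows them in the 12 libraries, with 1 pseudogene left out.

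**Figure D1:**
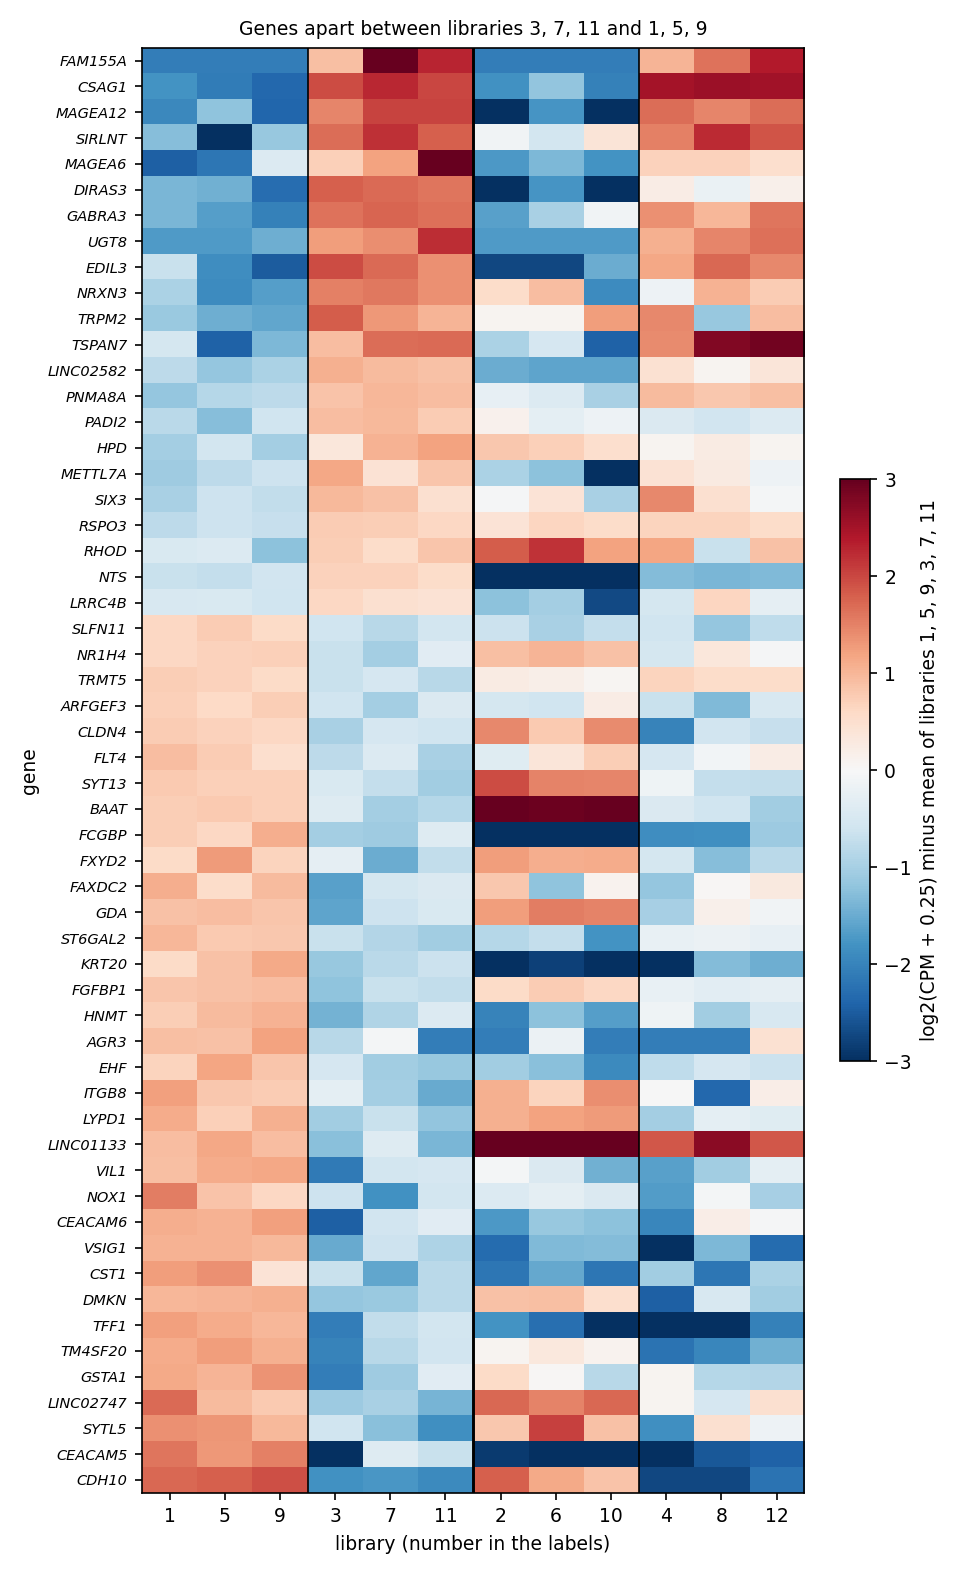
Each row is 1 of the genes apart between libraries 3, 7, 11 and 1, 5, 9, each column is a library, and colour gives log2(CPM + 0.25) less the mean of those 6 libraries, with the scale ending at 3 in either direction. The first 6 columns separate by construction. In the last 6, libraries 4, 8 and 12 look like libraries 3, 7 and 11 in the top rows, while many of the lower rows do not follow that division.

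CSAG1 RNA (chrX:152727484-152733721) was at 9.21 CPM, 11.4 CPM and 9.57 CPM in libraries 3, 7 and 11, and at 0.458 CPM, 0.315 CPM and 0.228 CPM in libraries 1, 5 and 9. The set means were 10.1 ± 1.20 CPM and 0.334 ± 0.116 CPM (SD, n = 3 each), 30.2-fold apart, and the lowest library of the CSAG1 set was 20.1 times the highest of the other. The CDH10 set was not at 0: it gave 12 counts in all, 4, 3 and 5 by library. MAGEA12, its head-to-head neighbour and a MAGE-A antigen, was at 6.02 CPM, 8.93 CPM and 8.98 CPM against 0.343 CPM, 0.736 CPM and 0.182 CPM. Both genes were thus high in the same 3 libraries and near the floor in the other 3.

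MAGEA6, another MAGE-A antigen of this region, was at 7.05 CPM and 10.1 CPM in libraries 3 and 7 but at 38.5 CPM in library 11. In the CDH10 set it was at 0.572 CPM, 0.736 CPM and 3.10 CPM. The sets did not overlap, but library 11 was far above its own set, and without it the log2 ratio was 2.36 in place of 3.45. All 300 bases of the start windows of MAGEA6 and its copy MAGEA3 are identical. MAGEA3 itself had at most 0.274 CPM in the 6 libraries, so how reads were divided between these near copies is uncertain. GABRA3, a subunit of the GABA-A receptor 561 kb from CSAG1 by lower coordinates, was at 6.37 CPM, 6.92 CPM and 6.45 CPM against 0.572 CPM, 0.420 CPM and 0.274 CPM.

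Among measured genes within 1 Mb of CSAG1, those apart lay in a stretch from GABRA3 to MAGEA6. Every measured gene of that stretch was apart, and no measured gene on either side of it was. In the table, 54 genes have their lower coordinate within 1 Mb of that of CSAG1. Of these, 15 were measured and 4 were apart, namely GABRA3, CSAG1, MAGEA12 and MAGEA6. Of all measured genes, 0.181% were apart and higher in the CSAG1 set. CETN2, a centrosome gene 99.5 kb away, was at 90.3 CPM to 133 CPM in the CSAG1 set and 129 CPM to 139 CPM in the CDH10 set, with overlap. CSAG4, below the measured level, was at 0.195 CPM to 0.503 CPM in the CSAG1 set and had no count in the CDH10 set. MAGEA2, MAGEA2B, CSAG2 and CSAG3, also within 1 Mb, had no count in any of the 12 libraries. The other measured germline antigens did not follow. Of 59 listed cancer-testis antigens, 58 were in the table and 6 were measured. The 3 of them that were not apart were PRAME, XAGE1A and SPANXB1. PRAME, a repressor of retinoic acid signalling found in many tumours, was at 219 CPM to 241 CPM in the CDH10 set and 240 CPM to 275 CPM in the CSAG1 set. MAGEA4, MAGEC1, MAGEC2 and CTAG1B, which were looked up after the values were seen, had no count in any of the 12 libraries. For a gene with near copies, whether no count means no RNA or reads that could not be placed was not tested. Of 35 measured genes of DNA methylation and germline gene silencing, 1 was higher and 1 lower in the CSAG1 set without overlap (3 and 1 with DESeq2 size factors), and their median log2 ratio was 0.01.

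**Figure D2:**
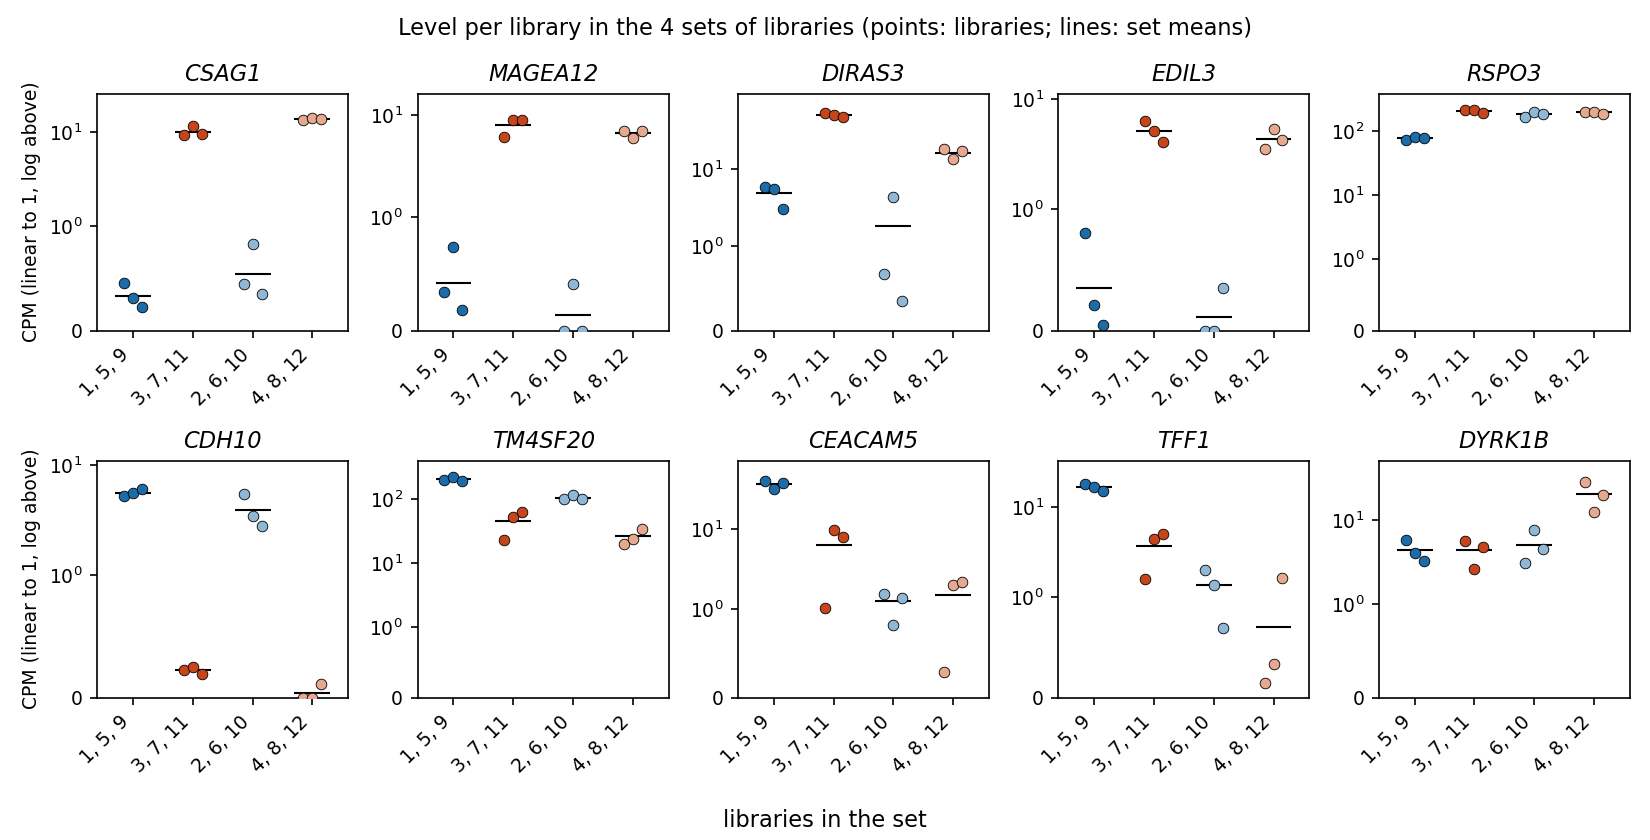
Points are single libraries, lines are means of 3, and the vertical axis is CPM (linear up to 1, logarithmic above), for 10 genes in the 4 sets of libraries. CSAG1, MAGEA12, DIRAS3 and EDIL3 were high in 3, 7, 11 and in 4, 8, 12, CDH10 was high in 1, 5, 9 and in 2, 6, 10, while CEACAM5 and TFF1 were highest in 1, 5, 9, and DYRK1B was highest in 4, 8, 12.

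The imprinted gene DIRAS3 (chr1:68045962-68050627) was the most abundant of the genes more than 10-fold higher in the CSAG1 set. It was at 54.9 CPM, 51.4 CPM and 48.4 CPM there and at 5.95 CPM, 5.57 CPM and 3.01 CPM in the CDH10 set, or 51.6 ± 3.23 CPM against 4.84 ± 1.60 CPM (SD, n = 3 each). The gene was thus detected in both sets at levels far apart. Its neighbours in the table within 1 Mb did not share this, since of 6 measured genes DIRAS3 alone was apart. The nearest of them, WLS, which carries Wnt proteins to the cell surface, was at 18.9 CPM to 19.9 CPM against 14.8 CPM to 17.2 CPM. Of 21 measured imprinted genes, 4 were higher in the CSAG1 set without overlap (8.63% of all measured genes were) and 3 lower, with a median log2 ratio of -0.01, so most imprinted genes did not go with DIRAS3.

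FAM155A, UGT8 and NRXN3 met an on-off condition of at least 1 CPM in each library of one set and at most 3 counts in each of the other. They are 0.0236% of the measured genes. FAM155A (NALF1), an accessory protein of the sodium leak channel, had no count in the CDH10 set and 1.71 CPM, 8.30 CPM and 4.88 CPM in libraries 3, 7 and 11. Summed over a set it had 106 counts against 0, and the lower counting limit of the ratio at 95% was 51.9. UGT8, which makes galactosylceramide, had 1 count in the CDH10 set, a ratio of 88.2 with a counting interval at 95% of 15.1 to 3556. NRXN3, a synaptic adhesion protein, had 3 counts there and a ratio of 31.9, with an interval of 10.3 to 159. These ratios pool the counts of a set, and their limits cover counting error only, not the spread between libraries. The genes were also picked by these same counts. As a ratio of set means, UGT8 was at 156 and NRXN3 at 25.7. CSAG1 missed this condition, with 4 counts in library 1 and 5 in library 9.

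EDIL3, an extracellular matrix protein that binds integrins, was at 6.25 CPM, 5.16 CPM and 4.10 CPM in libraries 3, 7 and 11 and at 0.801 CPM, 0.210 CPM and 0.0456 CPM in libraries 1, 5 and 9. RSPO3, a secreted amplifier of Wnt signalling, was abundant in both sets, at 212 CPM, 207 CPM and 191 CPM against 71.8 CPM, 80.6 CPM and 77.2 CPM, which is 2.66-fold. NTS, the precursor of the peptide neurotensin, was at 24.3 CPM, 24.2 CPM and 22.1 CPM against 9.38 CPM, 9.04 CPM and 9.99 CPM. For these 3 genes the libraries within a set lay close together in comparison with the gap between sets, apart from the low counts of EDIL3 in the CDH10 set.

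Others higher in the CSAG1 set were the non-coding RNAs LINC02582 (3.84-fold) and SIRLNT (14.7-fold), PNMA8A, a member of the paraneoplastic Ma antigen family (3.68-fold), and METTL7A, a thiol methyltransferase (3.32-fold). PADI2, which converts arginine in proteins to citrulline, was at 37.7 CPM to 43.4 CPM against 8.93 CPM to 14.4 CPM. RPS11P5, a ribosomal protein pseudogene, was at 75.5 CPM to 106 CPM against 19.6 CPM to 23.6 CPM. It is the pseudogene left out of the heat map, and it overlapped between the sets of the other libraries. How the counting divided its reads was not tested. The 23 genes also held TRPM2, TSPAN7, HPD, SIX3, RHOD and LRRC4B, all with set means under 5 CPM. The 23 lie on many chromosomes, with 5 of them among the 433 measured genes of the X chromosome. Over all chromosomes they are 23 of 12705 measured genes (0.181%). Of the 5, 4 lie in the stretch from GABRA3 to MAGEA6.

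CDH10 (chr5:24487100-24644978) was at 5.26 CPM, 5.57 CPM and 6.11 CPM in libraries 1, 5 and 9 and at 0.227 CPM, 0.252 CPM and 0.195 CPM in libraries 3, 7 and 11. The means were 5.65 ± 0.431 CPM and 0.225 ± 0.0282 CPM (SD, n = 3 each), 25.1-fold apart. It was the only measured gene among 7 of the table within 1 Mb, on a gene-poor stretch of chromosome 5. CDH10 stood alone in its family as well. Of 11 measured classical cadherins and catenins, it was the 1 apart. CDH1, the epithelial cadherin, was at 54.0 CPM to 67.5 CPM in the CSAG1 set and 44.4 CPM to 51.4 CPM in the CDH10 set. CDH17, the liver-intestine cadherin, was at 12.4 CPM to 12.7 CPM against 24.3 CPM to 27.4 CPM. GSTA1, a glutathione transferase, and SYTL5, a vesicle protein that binds RAB27, also met the on-off condition in this direction. In all, 3 measured genes did (0.0236%). GSTA1 was at 1.89 CPM to 2.42 CPM in the CDH10 set against 0 CPM to 0.586 CPM. SYTL5 was at 1.51 CPM to 2.06 CPM against 0 CPM to 0.341 CPM. Both levels are low. Off is set by counts and so depends on depth: the 0.586 CPM of GSTA1 in library 11 is 3 counts. GSTA1 overlapped between the sets of the other libraries.

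CEACAM6 and TM4SF20 were the most abundant of the genes higher in the CDH10 set, and CEACAM5 had the lowest log2 ratio after CDH10. TM4SF20, a membrane protein that controls cleavage of the transcription factor CREB3L1, was at 202 CPM, 223 CPM and 196 CPM in libraries 1, 5 and 9. It was at 23.3 CPM, 52.6 CPM and 62.9 CPM in libraries 3, 7 and 11. CEACAM6 was at 321 CPM, 312 CPM and 355 CPM against 27.3 CPM, 101 CPM and 119 CPM. CEACAM5 was at 39.9 CPM, 31.8 CPM and 37.2 CPM against 1.02 CPM, 9.81 CPM and 8.01 CPM. Library 3 was the lowest for each of these. Without it the log2 ratios were -1.84 for TM4SF20, -1.58 for CEACAM6 and -2.00 for CEACAM5, in place of -2.16, -2.00 and -2.49. The 2 CEACAM genes lie 46.9 kb apart on chromosome 19 by lower coordinates, and among 31 measured genes within 1 Mb of CEACAM5 they were the only ones apart. CEACAM1, a related receptor at the same locus, was at 7.17 CPM to 11.3 CPM against 11.9 CPM to 16.6 CPM.

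Other genes named by size of the ratio are described next. TFF1, a trefoil peptide secreted with mucus, was at 18.1 CPM, 16.5 CPM and 15.2 CPM in libraries 1, 5 and 9 against 1.59 CPM, 4.40 CPM and 5.08 CPM in libraries 3, 7 and 11. VIL1, the actin-bundling protein of microvilli, was 4.51-fold higher in the CDH10 set, and KRT20, a keratin of gut epithelium, 3.53-fold. EHF, an epithelial ETS transcription factor, was at 13.7 CPM to 19.8 CPM against 3.71 CPM to 5.91 CPM. NOX1, an NADPH oxidase of colon epithelium, was 4.50-fold higher, with a log2 ratio of -1.96 that was -0.48 in counts without strand. In the same direction were DMKN (4.31-fold), LYPD1 (4.00-fold), FGFBP1, a carrier of fibroblast growth factors (3.64-fold), ST6GAL2, a sialyltransferase (3.36-fold), GDA, guanine deaminase (3.32-fold), and LINC02747 (6.06-fold).

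The start windows of the genes in the 2 directions differ in composition. RefSeq windows were found for 17 of the 23 genes higher in the CSAG1 set, and 15 of these hold at least 10 CG dinucleotides, with a median of 21. For the 34 genes higher in the CDH10 set, 27 had a window, 9 hold at least 10 and the median was 5. For comparison, 93.9% of 10135 measured genes with a window hold at least 10, with a median of 29. CEACAM5 (2), KRT20 (2), TM4SF20 (3), NOX1 (1) and CEACAM6 (5) are at the low end, while GDA (17), LYPD1 (24) and ST6GAL2 (37) are not. Where a gene has several windows, the one with the most CG dinucleotides was taken. The motif CCGGAA, searched on both strands, is in the windows of MAGEA6 and MAGEA3. It is not in those of CSAG1, MAGEA12, DIRAS3 or CDH10, and is in 17.2% of all 35116 windows.

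Gene lists showed where the sets differed by smaller amounts. Of 34 measured sterol and fatty acid synthesis genes, which are targets of the SREBP transcription factors, 33 had a lower mean in the CSAG1 set and 23 were lower there without overlap (11.2% of all measured genes were). None was apart by 2-fold, and the median log2 ratio was -0.25 against -0.01 for all measured genes. SCD, the stearoyl-CoA desaturase, was at 680 CPM, 679 CPM and 680 CPM in libraries 3, 7 and 11 and at 763 CPM, 813 CPM and 874 CPM in libraries 1, 5 and 9. FADS1, a fatty acid desaturase, was at 659 CPM to 755 CPM against 819 CPM to 927 CPM. HMGCS1, an early enzyme of cholesterol synthesis named here after its values were seen, was at 96.2 CPM to 122 CPM against 138 CPM to 160 CPM. Leaving out library 3 gave the list a median of -0.24.

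Among 14 measured mucins and secretory genes, 12 had a lower mean in the CSAG1 set, 8 were lower without overlap and 2, TFF1 and AGR3, were apart. The median log2 ratio was -0.44. The members that follow were named after their values were seen. AGR2, a disulfide isomerase that mucin production needs, was at 778 CPM to 1088 CPM in the CSAG1 set and 1774 CPM to 1946 CPM in the CDH10 set. The gel-forming mucins MUC5AC (28.6 CPM to 43.8 CPM against 76.6 CPM to 94.8 CPM) and MUC5B (5.53 CPM to 12.3 CPM against 17.9 CPM to 22.5 CPM) were lower in the CSAG1 set. CREB3L1, the factor whose cleavage TM4SF20 controls, was at 21.5 CPM to 31.3 CPM against 60.4 CPM to 71.9 CPM. The level of this list was lowest in library 3, at -0.75 on the log2 scale against -0.30 and -0.16 in libraries 7 and 11, and all 3 were below the 0.30 to 0.51 of libraries 1, 5 and 9.

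**Figure D3:**
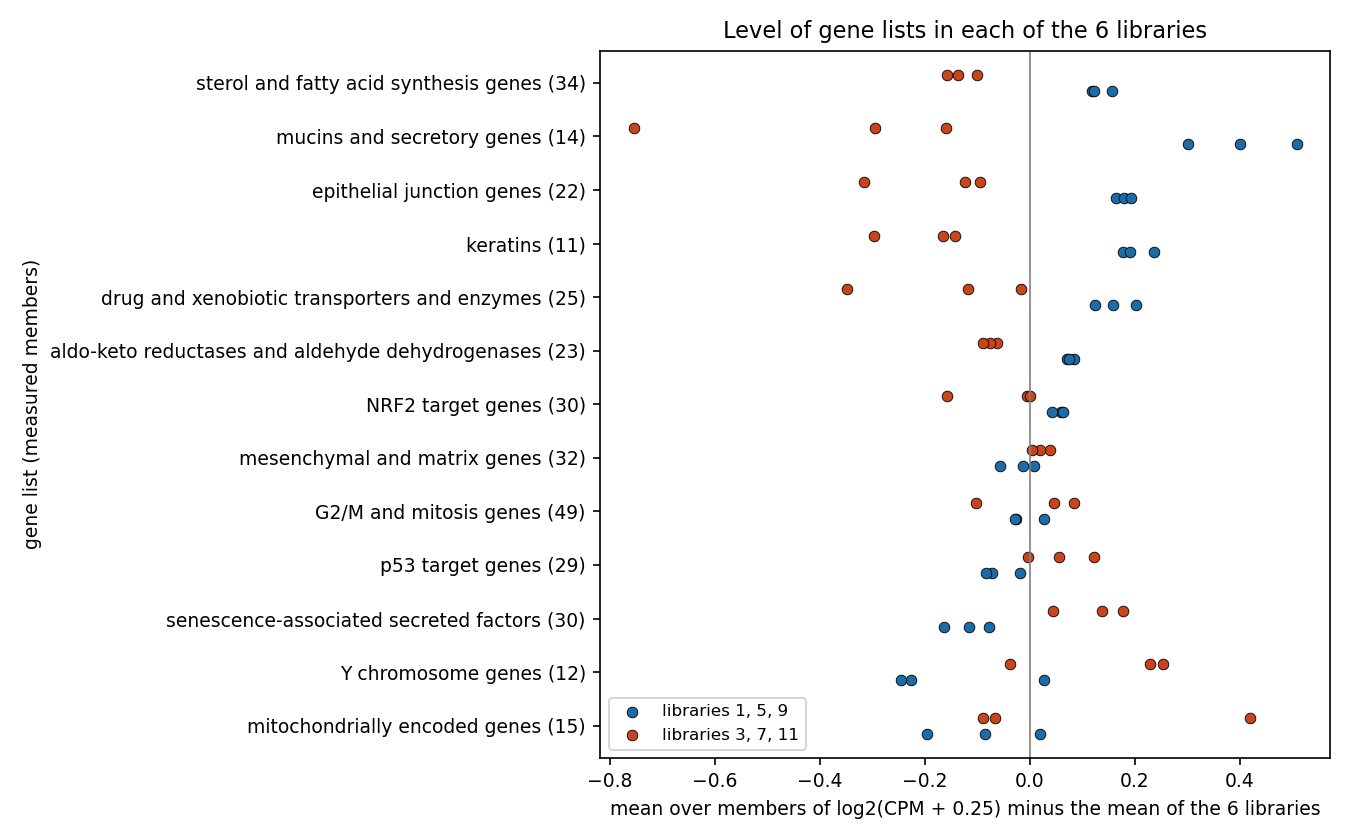
Points give the level of a gene list in 1 library, as the mean over its measured members (number in parentheses) of log2(CPM + 0.25) less the average of that gene in the 6 libraries. For sterol and fatty acid synthesis genes, mucins and secretory genes, epithelial junction genes and keratins, libraries 3, 7 and 11 lie left of libraries 1, 5 and 9, while for mitochondrially encoded genes library 3 lies alone on the right.

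Epithelial genes had a like direction. Of 22 measured epithelial junction genes, 10 were lower and 1 (CDH1) higher in the CSAG1 set without overlap. CLDN4, a tight junction claudin, was at 2.96 CPM to 4.15 CPM against 9.31 CPM to 10.3 CPM. SPINT2, an inhibitor of membrane proteases, was at 232 CPM to 256 CPM against 332 CPM to 367 CPM. EPCAM, an epithelial adhesion protein named after its values were seen, was at 12.4 CPM to 17.0 CPM against 30.0 CPM to 32.7 CPM. All 11 measured keratins had a lower mean in the CSAG1 set, 5 of them without overlap, and apart from KRT20 by less than 2-fold. KRT18 and KRT81, the most abundant, overlapped.

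Enzymes that handle aldehydes, drugs and foreign compounds were in part lower in the CSAG1 set. Of 23 measured aldo-keto reductases and aldehyde dehydrogenases, 10 were lower and 2 higher without overlap. AKR1C2, a ketosteroid reductase, was at 3122 CPM to 3697 CPM against 4663 CPM to 4875 CPM, and ALDH1A1 overlapped. Of 25 drug and xenobiotic transporters and enzymes, 12 were lower and 3 higher. Their median log2 ratio of -0.20 was -0.05 without library 3. GSTP1, a glutathione transferase, was at 1127 CPM to 1246 CPM against 1502 CPM to 1728 CPM. Of 30 NRF2 target genes, 9 were lower and 1 higher, but with DESeq2 size factors 5 were lower and 2 higher.

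In the other direction stood secreted factors and p53 targets. Of 30 measured senescence-associated secreted factors, 10 were higher in the CSAG1 set without overlap and 2 lower, with a median log2 ratio of 0.23. IGFBP7, a binder of insulin-like growth factors (37.7 CPM to 48.3 CPM against 18.7 CPM to 22.5 CPM), and PLAU, the urokinase protease (58.6 CPM to 79.7 CPM against 39.2 CPM to 47.8 CPM), were picked from the 10 after their values were seen. CXCL5, a neutrophil chemokine, was at 215 CPM to 237 CPM against 257 CPM to 305 CPM, opposite to most of the list. Of 29 p53 targets, 6 were higher and 0 lower, with a median of 0.07. One of the 6 was CDKN1A, the cell cycle inhibitor p21, at 54.3 CPM to 62.3 CPM against 43.9 CPM to 47.1 CPM, likewise picked after its values were seen. Of 11 measured protocadherins outside the gene clusters, 3 were higher and 0 lower, among them PCDH9 at 181 CPM, 237 CPM and 236 CPM against 142 CPM, 140 CPM and 152 CPM.

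Genes of lung epithelial identity and liver-type plasma proteins were more often lower than higher in the CSAG1 set. Of 11 measured members of the first list, 6 were lower and 1 higher without overlap. Of 14 liver-type plasma proteins, 12 had a lower mean there, 4 were lower and 2 higher without overlap, and the median log2 ratio of -0.34 was -0.21 without library 3.

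Cell cycle and mesenchymal lists had medians near 0. Of 49 measured G2/M and mitosis genes, 3 were higher and 1 lower in the CSAG1 set without overlap, and of 41 G1/S and replication genes 2 and 5, with medians of 0.01 and -0.03. TOP2A, the mitotic topoisomerase, was at 1519 CPM to 1703 CPM against 1238 CPM to 1499 CPM, and CDC25B, a cell cycle phosphatase, at 321 CPM to 339 CPM against 367 CPM to 399 CPM. Of 32 mesenchymal and matrix genes, 8 were higher and 6 lower without overlap, with a median of 0.08. Both counts are above the shares of all measured genes (8.63% and 11.2%), so this list was mixed in direction. TGFBI, a matrix protein induced by TGF-beta, was at 503 CPM to 516 CPM against 363 CPM to 395 CPM, a gap small beside its 2423 CPM to 3357 CPM in libraries 2, 6 and 10. VIM, the mesenchymal intermediate filament, overlapped. DYRK1B itself was at 5.68 CPM, 2.64 CPM and 4.88 CPM in the CSAG1 set and 5.83 CPM, 4.10 CPM and 3.28 CPM in the CDH10 set, and was 12.6 CPM to 28.6 CPM in libraries 4, 8 and 12.

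Interferon-stimulated genes went in both directions but were more often higher. Of 28 measured members, 7 were higher and 4 lower in the CSAG1 set without overlap, with a median log2 ratio of 0.13. Of all measured genes, 8.63% were higher and 11.2% lower. In the MHC list of 17 genes, 3 were higher, among them B2M, the light chain of class I molecules, at 420 CPM to 426 CPM against 349 CPM to 404 CPM. The 1 lower was HLA-DMB, a class II peptide loader, at 45.7 CPM to 76.2 CPM against 123 CPM to 146 CPM. Of 24 YAP and TEAD targets, 4 were higher and 2 lower. WWTR1, the coactivator TAZ, was at 356 CPM to 367 CPM against 254 CPM to 289 CPM, while CCN2, a classic target named after its values were seen, was at 8.64 CPM to 11.1 CPM against 18.6 CPM to 22.9 CPM.

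The 12 measured members of the list of Y chromosome genes all had a higher mean in the CSAG1 set, with a median log2 ratio of 0.30, and 3 of them did not overlap. Over the 15 measured genes placed on Y, pseudogenes included, the median was 0.22. The level of the list overlapped between sets, with library 11 at -0.04 and library 9 at 0.03. RPS4Y1, a ribosomal protein, was at 443 CPM, 334 CPM and 336 CPM in libraries 3, 7 and 11 and at 270 CPM, 282 CPM and 254 CPM in libraries 1, 5 and 9. The 15 mitochondrially encoded genes also all had a higher mean in the CSAG1 set, with a median of 0.22, but 0 were without overlap, and without library 3 the median was 0.01. Markers of other cell types were low in both sets. Of 18 blood and endothelial markers 3 were measured, and their summed level was 11.1 CPM to 14.8 CPM in the CSAG1 set and 12.7 CPM to 15.8 CPM in the CDH10 set, with CD3E, VWF and KDR at 0 in all 12 libraries. Of 12 fibroblast and smooth muscle markers 3 were measured, 2 higher and 1 lower in the CSAG1 set without overlap, with a summed level of 20.1 CPM to 21.9 CPM against 23.6 CPM to 27.2 CPM. Of 16 neural and neuroendocrine markers 5 were measured, with a summed level of 18.9 CPM to 23.5 CPM in the CSAG1 set that overlapped that of the CDH10 set.

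Among the autosomes, chromosome 20 had the largest share of genes lower in the CSAG1 set. Of its 349 measured genes, 23.2% were lower in the CSAG1 set without overlap and 2.58% were higher, against 11.2% and 8.63% of all measured genes. The median log2 ratio was -0.10. The level of the chromosome was -0.04, -0.06 and -0.06 in libraries 3, 7 and 11 and 0.05, 0.06 and 0.04 in libraries 1, 5 and 9, so all 6 followed the sets. Chromosome 11 came next among the autosomes, with 17.8% lower. Of 12092 runs of 25 neighbouring measured genes, 51 had a median of at least 0.2 in size. The runs were moved on by 1 gene at a time and overlap, so the 51 are not separate regions. The run with the largest was on chromosome 20 from THBD to TM9SF4 (chr20:23045633-32167256), with a median of -0.27 and 10 genes lower and 0 higher without overlap. A difference of this size lies below the 2-fold condition, and a copy number of DNA was not measured. CST1 was the 1 apart gene on that chromosome.

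**Figure D4:**
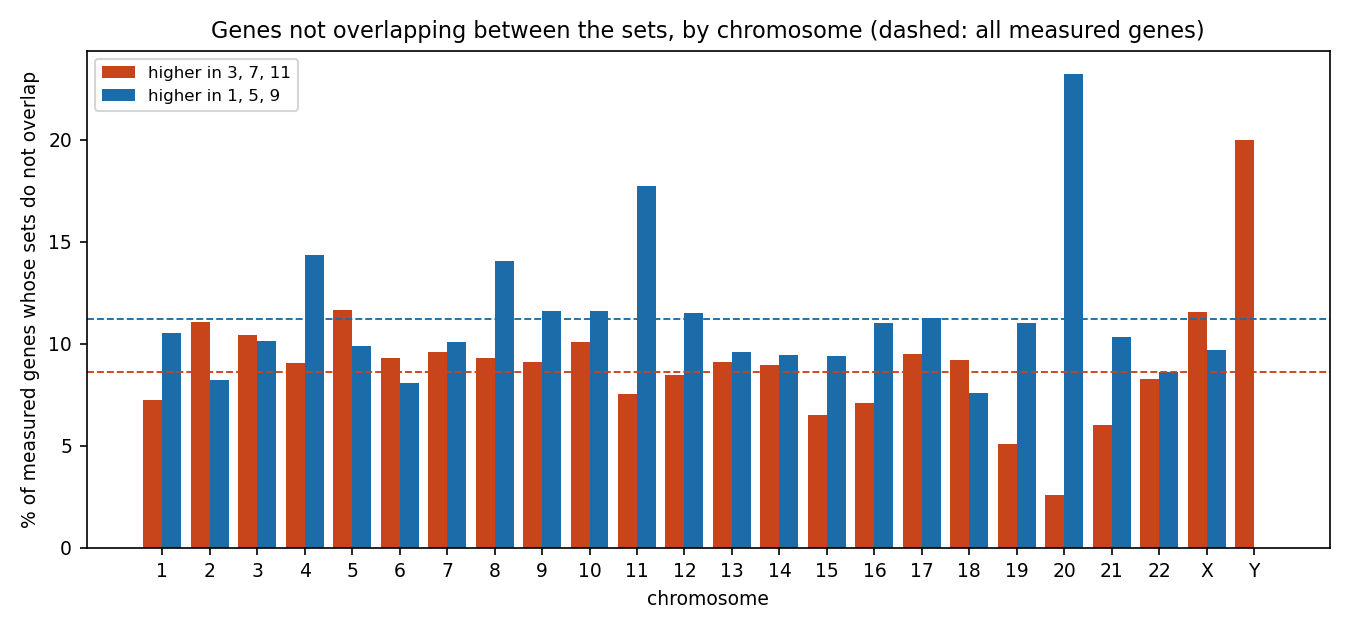
Bars give, for each chromosome, the percent of measured genes whose 2 sets do not overlap, higher in libraries 3, 7, 11 (red) or in libraries 1, 5, 9 (blue), and dashed lines give 8.63% and 11.2% for all measured genes. Chromosome 20 has the highest blue bar, 23.2%, and the lowest red bar among the autosomes, 2.58%, while Y has 15 measured genes.

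The other 6 libraries fall into sets by the same remainders. Libraries 4, 8 and 12 had CSAG1 at 13.4 CPM to 14.2 CPM and CDH10 at 0 CPM to 0.109 CPM, and libraries 2, 6 and 10 had CSAG1 at 0.347 CPM to 0.824 CPM and CDH10 at 2.78 CPM to 5.52 CPM. These 6 were not used to call the 57 genes, although their own sets were known when the 6 compared here were chosen. They also differ from each other much more widely. In them 1.47% of measured genes were apart and higher in 4, 8, 12, and 2.67% higher in 2, 6, 10, where TGFBI and other mesenchymal genes were high.

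Of the 23 genes higher in the CSAG1 set, 13 were apart in the same direction in libraries 4, 8, 12 against 2, 6, 10, which is 56.5% of them and 6.95% of the 187 genes apart in that direction. Without CSAG1 and MAGEA12 it was 11 of 21. Besides those, the 13 include DIRAS3, EDIL3, GABRA3, MAGEA6, FAM155A, UGT8, TSPAN7, SIRLNT, LINC02582, PNMA8A and NTS. DIRAS3 was at 13.6 CPM to 18.3 CPM in libraries 4, 8 and 12 and at 0.347 CPM to 4.40 CPM in 2, 6 and 10. EDIL3 was at 3.49 CPM to 5.30 CPM against 0 CPM to 0.347 CPM. UGT8 and FAM155A had no count in libraries 2, 6 and 10 and 1.45 CPM to 2.30 CPM and 1.89 CPM to 5.25 CPM in 4, 8 and 12.

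Of the 34 genes higher in the CDH10 set, 9 were apart in the same direction in the other 6 libraries, which is 26.5% of them and 2.65% of the 339 genes apart that way. Without CDH10 it was 8 of 33. The 9 are CDH10, TM4SF20, GDA, LYPD1, LINC02747, CLDN4, SYT13, BAAT and FXYD2. TM4SF20 was at 99.0 CPM to 118 CPM in libraries 2, 6 and 10 and at 19.9 CPM to 34.4 CPM in 4, 8 and 12. BAAT, the enzyme that joins bile acids to amino acids, was at 48.9 CPM to 55.2 CPM against 2.85 CPM to 4.51 CPM, a wider gap than in the CDH10 set, where it was at 10.3 CPM to 10.8 CPM against 2.89 CPM to 4.66 CPM.

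CEACAM5, TFF1, KRT20, VIL1 and VSIG1, in contrast, overlapped between the other sets. CEACAM5 was at 0.291 CPM to 2.19 CPM in libraries 4, 8 and 12 and at 0.824 CPM to 1.55 CPM in 2, 6 and 10, so that all 6 were below every library of the CDH10 set. TFF1 was at most 1.99 CPM in those 6. KRT20 was at most 1.99 CPM as well, and VSIG1 at most 0.694 CPM. SLFN11, which sensitises cells to DNA-damaging drugs, was at 25.6 CPM to 29.4 CPM in the CDH10 set and at 7.62 CPM to 11.7 CPM in all of the other 9 libraries. RSPO3 had the mirror pattern, at 71.8 CPM to 80.6 CPM in the CDH10 set and 167 CPM to 212 CPM in the other 9. For CEACAM5, TFF1, KRT20, VSIG1, SLFN11 and RSPO3, libraries 1, 5 and 9 therefore stood apart from all 9 others.

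**Figure D5:**
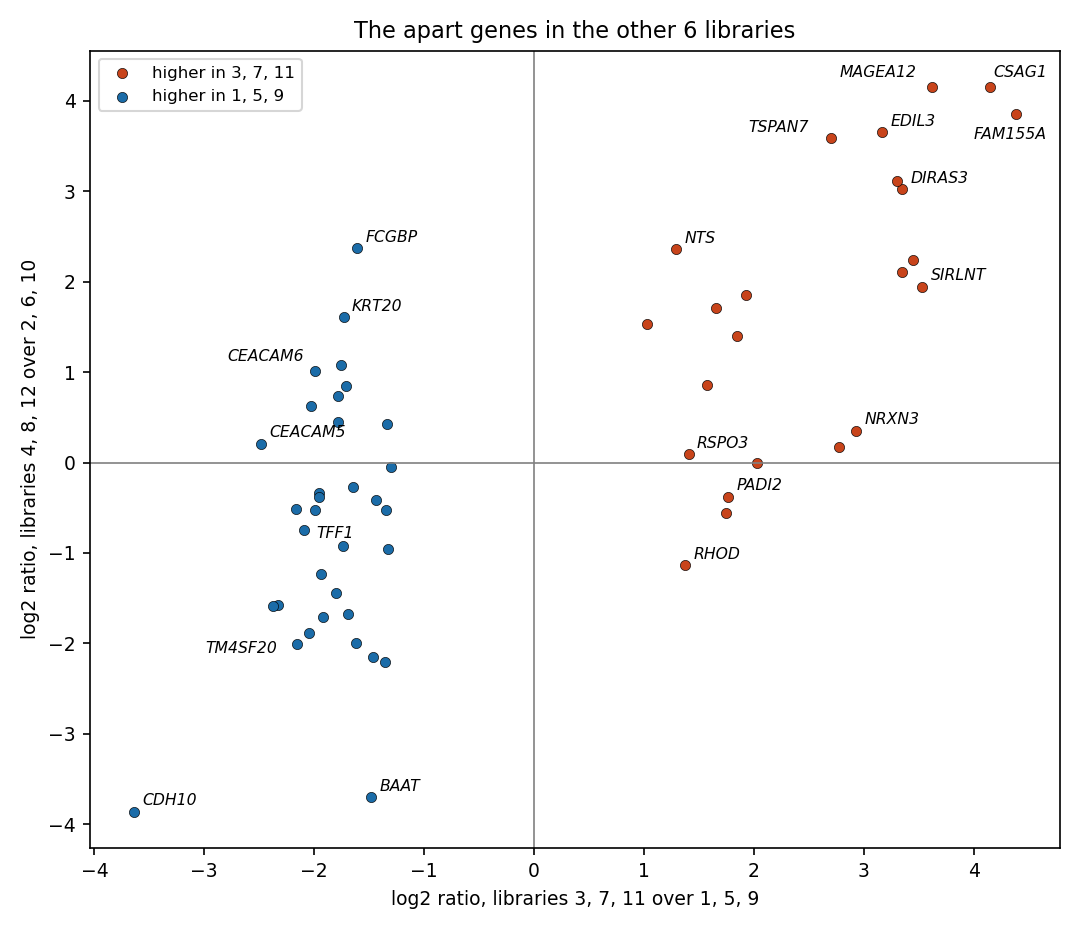
Each point is 1 of the 57 apart genes, with the log2 ratio of libraries 3, 7, 11 over 1, 5, 9 on the horizontal axis, which chose the genes, and that of libraries 4, 8, 12 over 2, 6, 10 on the vertical axis. CSAG1, MAGEA12, FAM155A and EDIL3 lie at the upper right and CDH10 at the lower left, while genes such as CEACAM5 and RSPO3 lie near 0 on the vertical axis and FCGBP lies on the opposite side.

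Seen library by library, each of libraries 4, 8 and 12 was above the mid level between the sets for 18 of the 23 genes, while libraries 2, 6 and 10 were above it for 7, 7 and 6. For the 34 genes higher in the CDH10 set, libraries 4, 8 and 12 were above the mid level for 4, 6 and 7, and libraries 2, 6 and 10 for 18, 17 and 19. The sterol and fatty acid synthesis list had a median log2 ratio of -0.24 in the other 6 libraries and the Y chromosome list one of 0.44. Mucins and secretory genes went the other way there, with 0.74, and mesenchymal and matrix genes had -1.21. On chromosome 20, 28.9% of genes were lower in 4, 8, 12 than in 2, 6, 10 without overlap and 22.9% higher, against 22.1% and 25.6% of all measured genes.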

How the data were processed

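Per the labels' protocols, RNA came from a column kit and libraries from the QuantSeq FWD V2 kit, a 3' tag method that keeps strand, for 12 samples of A549 cells. Reads were aligned with STAR to GRCh38.p14, per the submitters' processing notes. Not given in the sources used here are STAR's version, the gene annotation and whether molecular identifiers were used. Whole-number counts were deposited per gene by the authors, as a merged table and as a file per library with strand. All 40605 rows of the merged table equal a transcript-strand row. Rows with the same symbol were summed (75 symbols). Reads assigned to no gene (35.5% to 43.2%) were left out.

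Counts were scaled with TMM factors (edgeR 4.0.16, R 4.3.3) over 12 libraries and are given as CPM. Log2 ratios are of set means plus 0.25 CPM. Positions and start windows are RefSeq on GRCh38.p14, with a position for 99.6% of 12705 measured genes. Sets follow the library number in the labels, and their members, the gene lists and the rules were chosen with earlier results of these data known. No p-value was computed. Named genes are CSAG1, MAGEA12, CDH10 and DYRK1B, up to 15 per direction with the largest log2 ratio among genes apart and at least 5 CPM in the higher set, and up to 4 apart members per list (or, with fewer than 2 apart, the 2 most abundant). Other genes were chosen after their values were seen. The calls were checked on simulated counts with the same spread between libraries for every gene. Only genes of at least 5 CPM were changed there, so recovery of less abundant genes was not checked. Alternatives were DESeq2 1.42.0 size factors, library totals, TMM over the 6 libraries, totals without mitochondrial genes, transcript-strand counts, counts without strand, other thresholds and leaving out each library. The alternatives for genes that do not overlap were added after the data were seen.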

Additional observations from a re-analysis of the deposited data

Results flagged for a closer look

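For 8 of the 57 genes apart between libraries 3, 7, 11 and 1, 5, 9, every library of one other set lay above every library of its counterpart in the opposite direction, by the log2 ratio of libraries 4, 8, 12 over 2, 6, 10. They are 3 of the 23 genes higher in libraries 3, 7 and 11 and 5 of the 34 higher in libraries 1, 5 and 9. Of all measured genes, 22.1% were higher in 2, 6, 10 and 25.6% higher in 4, 8, 12 without overlap. Such genes were thus no more frequent among the 57 than among all measured genes. The difference between the 2 contrasts was not tested, and their libraries also differ in DYRK1B and in mesenchymal genes. Of genes higher in libraries 3, 7 and 11, PADI2 had a ratio of -0.38 there, HPD of -0.56 and RHOD of -1.13. Of genes higher in libraries 1, 5 and 9, TRMT5, a tRNA methyltransferase, had 0.43, ST6GAL2 0.84, EHF 0.73 and HNMT, which inactivates histamine, 1.08. FCGBP, a mucus protein that binds IgG, had 2.37: it was at 17.4 CPM to 24.1 CPM in libraries 1, 5 and 9, 5.28 CPM to 8.59 CPM in 3, 7 and 11, 2.91 CPM to 5.14 CPM in 4, 8 and 12, and 0.221 CPM to 0.962 CPM in 2, 6 and 10.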

How the results depend on the processing

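Scaling and the choice of count table left the counts of apart genes within 22 to 25 (higher in libraries 3, 7 and 11) and 33 to 37 (higher in 1, 5 and 9). With no filter on low counts they were 72 and 150, with genes averaging 5 CPM or more 11 and 17, with a gap of 1.5 times 61 and 109, and with a gap of 4 times 10 and 2. Leaving out 1 library leaves fewer samples to separate and gave 31 to 38 and 39 to 65 apart genes, 2 to 5 and 1 to 9 on-off genes, and 12 to 14 and 9 to 15 genes apart in the same direction in the other 6. Apart genes numbered 35 or 38 of the first direction without any of libraries 1, 5, 9 and 11, and 52 and 65 of the second without library 7 and library 11. On-off genes of the second numbered 8, 9, 6 and 1 without libraries 3, 7, 11 and 9, and the 5 of the first were without library 9. The 15 were without library 11. On-off genes were 1 and 0 when off meant 0 counts, and 0 and 1 when on meant at least 5 CPM. With no overlap in the other 6 in place of a 2-fold gap, 15 genes of each direction had the same direction. Genes without overlap numbered 1246 and 1258 with DESeq2 size factors, against 1096 and 1421, so the excess in 1 direction depends on the scaling. No named apart gene changed sign in any alternative run. In counts without strand, NOX1 had a log2 ratio of -0.48. The cause of these shifts was not tested. No result comes from a test, and no paired analysis was made. Each set holds the title replicate numbers 1, 2 and 3 once. Libraries with the same number in the 2 sets differ in construct as titled. At 3 counts per library, genes under 0.59 CPM in library 11 cannot be told from absent.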

Other observations

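A few genes were high in single libraries, or in libraries that follow none of the sets. RPL36A, a ribosomal protein gene, was at 356 CPM in library 5 and at most 10.7 CPM in the other 11. AMY1A, a salivary amylase with near-identical copies, was at 16.5 CPM in library 3 and at most 0.228 CPM in the other 5 of the 6 compared. The pseudogene RPS2P46 was at 906 CPM and 885 CPM in libraries 7 and 11 but at 39.7 CPM in library 3 of the same set, and at 61.0 CPM to 82.4 CPM in libraries 1, 5 and 9. In the other 6 it was at 769 CPM to 923 CPM in libraries 2, 4, 6 and 10 and at 73.8 CPM and 84.8 CPM in libraries 8 and 12. MTND1P23, a nuclear copy of a mitochondrial gene, was at 384 CPM and 269 CPM in libraries 1 and 9 and at most 4.77 CPM in the other 10. RPS26P58 was at 115 CPM in library 11 and 124 CPM in library 4 and at most 9.02 CPM elsewhere. These genes share sequence with others, and how the counting divided such reads was not tested.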
